A study of Drosophila melanogaster with 3 samples.

Results

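The fly genes of programmed cell death were examined for binding of tap, the fly member of the neurogenin family of basic helix-loop-helix (bHLH) proteins, in embryos of Drosophila melanogaster. The set was given by name and held 10 of the 13945 protein-coding genes of the annotation, namely rpr, hid, grim, skl, Diap1, Dark, Dronc, Drice, Dcp-1 and p53, and all 10 were found by symbol. Each peak summit was counted for the protein-coding gene whose transcription start site (TSS) was nearest, whatever the distance, and all summits were mapped across the locus that rpr, hid, grim and skl share. There was 1 group of embryos and no comparison group. The embryos were whole, of both sexes and 6 to 16 h old, and came from 1 transgenic line that stably expressed tap with GFP (eGFP) fused to its C-terminus; tap-eGFP was recovered with an antibody against GFP and the bound DNA was sequenced, in 3 biological replicates. Each replicate came with a list of 30000 peaks, and the pooled replicates with another of 30000. The authors also derived a set of 4336 peaks with a reproducibility threshold, called the thresholded set here. A peak in this set need not have a match in every replicate. Whole embryos mix all tissues, so strong binding in few cells and weak binding in many cells cannot be told apart, and no library from embryos without the fusion was analysed here.

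In the fly, apoptosis is held in check by Diap1, a ubiquitin ligase of the inhibitor of apoptosis family that binds caspases and blocks them. The small proteins encoded by rpr, hid, grim and skl bind Diap1, release the caspases and so start death, while Dark, the fly relative of Apaf-1, assembles the initiator caspase Dronc into an apoptosome that cleaves the effector caspases Drice and Dcp-1. p53 is the transcription factor that switches on rpr, hid and skl after DNA damage. The embryonic nervous system is a main site of such death, and intergenic DNA around rpr and grim is known to direct the death of neural stem cells. The DNA sites of bHLH factors such as tap are E-boxes, hexamers written CANNTG.

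A thresholded summit was assigned to 6 of the 10 cell death genes (rpr, hid, grim, Diap1, Dcp-1 and p53), against 19.0% of all protein-coding genes. The 6 genes shared 15 summits, of which Diap1 had 6, rpr 3, hid 2, grim 2, Dcp-1 1 and p53 1. A thresholded summit lay within 500 bp of a TSS of 5 of the 10 genes (Diap1, hid, rpr, Dcp-1 and p53), against 10.7% of all protein-coding genes. In the pooled list, which goes far below the threshold, 8 of the 10 had a summit, against 48.3% of all protein-coding genes, and the 2 without any were Dark and Drice. Genes with much sequence to themselves collect more summits. Of the members with at least 10 kb of genome nearest to their TSSs, 4 of 5 had a thresholded summit, against 36.6% of all such genes. Of those with less, 2 of 5 had one, against 13.2%. This split does not match the genes by length, as rpr, grim and skl have 67.8, 48.6 and 31.3 kb. The summits of rpr, hid and grim also share a locus, so these genes are not separate observations.

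A thresholded peak carries no replicate error, so the replicates were compared through the 4336 strongest peaks of each list. Among these, 5 cell death genes had a summit in replicate 1, 7 in replicate 2 and 4 in replicate 3, or 5.33 ± 1.53 (SD, n = 3), against 19.2%, 19.5% and 19.1% of all protein-coding genes in replicates 1, 2 and 3. The number of such summits was 12, 14 and 12, or 12.7 ± 1.15 (SD, n = 3). Diap1 and hid were among them in every replicate, rpr too, while p53 was there in replicate 3 alone, and Dark and Dronc in replicate 2 alone. When a thresholded summit was kept only if both remaining replicates held it among their strongest, 2 cell death genes kept one without replicate 1, 3 without replicate 2 and 5 without replicate 3. By that stricter rule 12.1%, 12.4% and 14.8% of all protein-coding genes had one without replicates 1, 2 and 3. Diap1 and hid kept a summit in each case, and p53 in none.

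**Figure D1:**
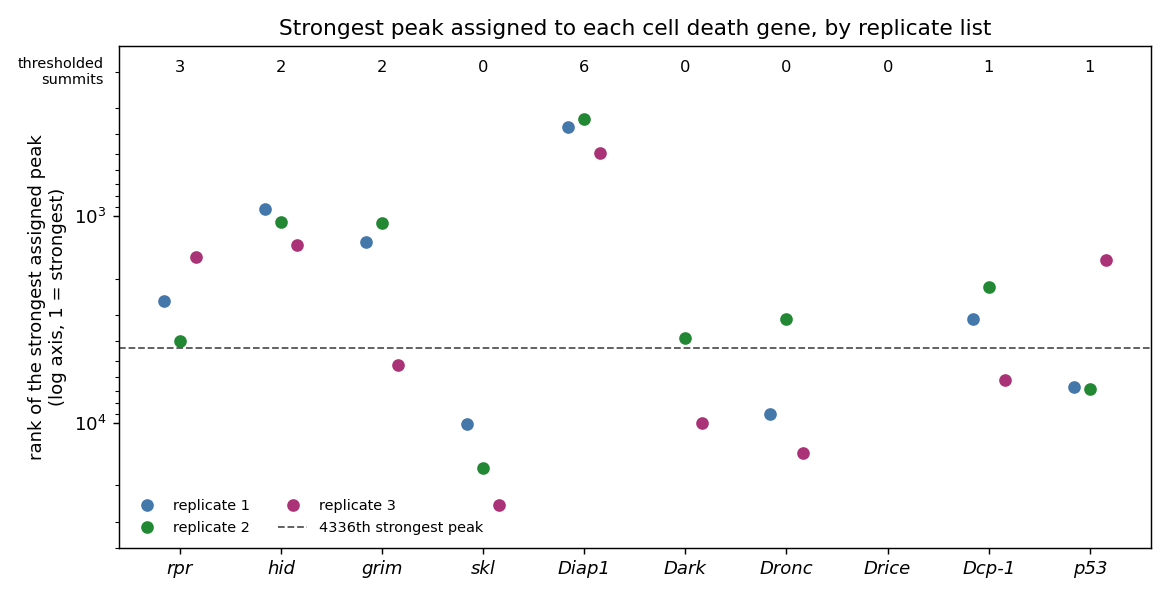
Rank of the strongest peak assigned to each cell death gene (log axis, 1 = strongest, drawn at the top) in the lists of replicates 1, 2 and 3; the dashed line marks rank 4336 and the numbers along the top count thresholded summits. Diap1 is the highest in all 3 replicates, at ranks 369, 337 and 495, rpr and hid lie above the line in all 3, skl lies below it in all 3, and Drice has no point.

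p53 (FBgn0039044) lies on the minus strand of 3R:23049657-23054082. It had 1 thresholded summit, 62 bp upstream of the TSS of the transcripts p53-RB and p53-RC, in a peak at 3R:23053956-23054331 with a signal of 179.7 and rank 3465 of the 4336 thresholded peaks. The signal is the authors' own value for the peak. In the replicate lists the peak ranked 6684, 6821 and 1622, so replicates 1 and 2 placed it well below their strongest 4336 and replicate 3 well above that line. The summit also lay inside the noncoding gene asRNA:CR46089 on the opposite strand, and binding of a protein to DNA does not tell the strands apart. The upstream part of the window of 100 bases to each side of the summit is shown in dm6, 5′ to 3′ on the minus strand (the strand of p53), from the RefSeq genome of that assembly, because it holds a pair of copies of TATCGATA, in capitals, the element bound by the promoter factor DREF, separated by a short spacer. It holds no E-box.
p53 promoter, 3R:23054083-23054244: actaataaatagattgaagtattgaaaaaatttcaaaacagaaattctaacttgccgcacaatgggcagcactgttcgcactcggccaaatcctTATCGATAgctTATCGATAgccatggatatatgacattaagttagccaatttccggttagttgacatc

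The locus of the death-inducing genes was taken as the DNA between the neighbouring genes CG13699 and CG32196, 3L:18162523-18459463, or 296.9 kb. Within it hid, grim, rpr and skl follow each other in this order along the arm, all on the minus strand. Between and beside them lie 4 other protein-coding genes, CG7320, CheA75a, CG5103 and CG13700, and 12 noncoding RNA genes. The locus held 18 thresholded summits, or 6.06 per 100 kb, against 3.59 per 100 kb over all of arm 3L and 3.24 over all arms. It held 134 summits of the pooled list, or 45.1 per 100 kb, against 24.8 over arm 3L and 22.4 over all arms. The rates for the arms take in long stretches with almost no summits, such as 3L from 23161399 on. These stretches lower the rates for the arms and widen the contrast with the locus. Of the strongest 4336 peaks, the locus held 17 in replicate 1, 15 in replicate 2 and 10 in replicate 3, or 14.0 ± 3.61 (SD, n = 3). Its full replicate lists held 137, 142 and 94 summits there, so replicate 3 had the fewest on both counts. Over the whole of arm 3L the same lists held 6999, 7049 and 6815 summits. By the rule that asks for both remaining replicates, 6, 7 and 13 of the 18 summits were kept without replicates 1, 2 and 3.

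**Figure D2:**
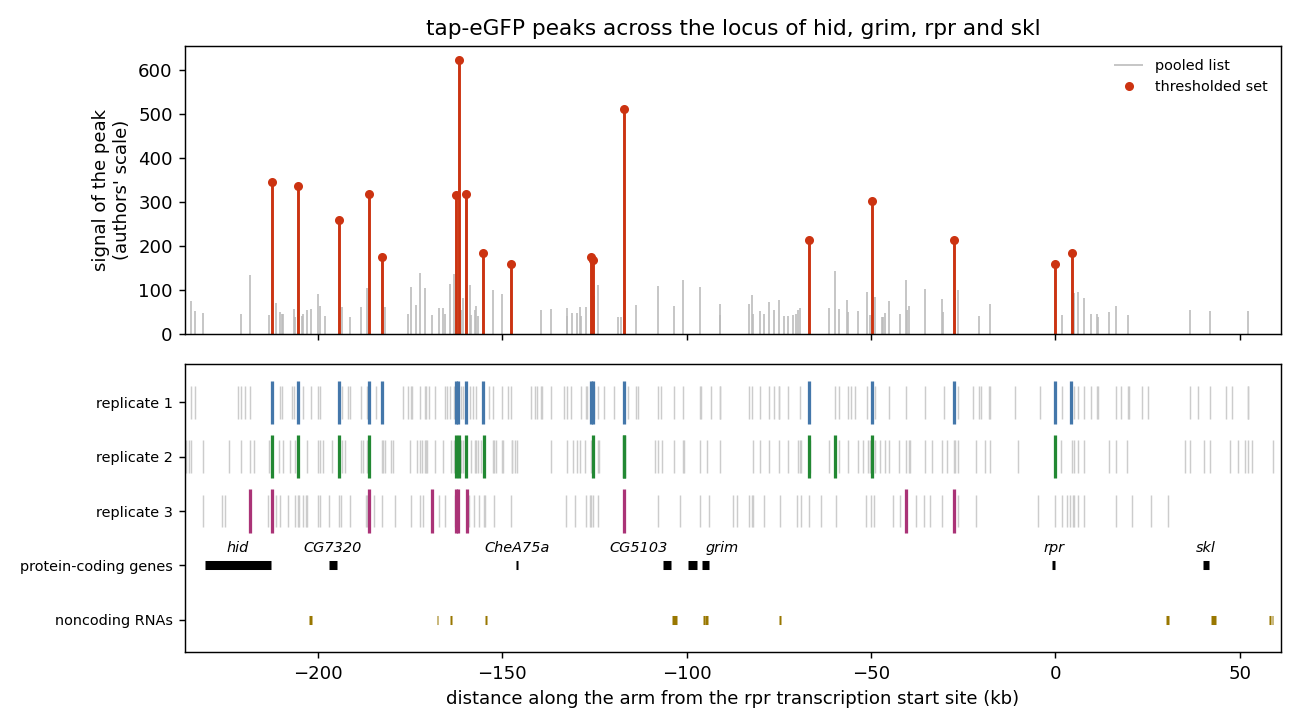
The locus of hid, grim, rpr and skl, drawn by distance from the rpr TSS in kb. The upper panel gives the signal of each thresholded peak (red) and of each further peak of the pooled list (grey), on the authors' linear scale; the lower panel gives the summits of each replicate list, coloured where they are among its strongest 4336 and grey otherwise, above the genes. Of the 18 thresholded summits, 13 stand between hid and grim, and none stands near skl.

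The summits were spread unevenly. Between hid and grim, over 117.1 kb, there were 13 thresholded summits, or 11.1 per 100 kb, and 12, 11 and 7 of the strongest in replicates 1, 2 and 3. Between grim and rpr, over 93.12 kb, there were 3 thresholded summits, or 3.22 per 100 kb, with 3, 3 and 2 of the strongest in the replicates. Between rpr and skl, over 40.12 kb, there was 1, or 2.49 per 100 kb. The body of hid held none and neither did the 19.52 kb between skl and CG32196. The hid to grim stretch held the most in each replicate and the grim to rpr stretch came next. The widest gap between neighbouring thresholded summits was 50250 bp and enclosed grim, and the narrowest was 597 bp.

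The lengths and gene content of the locus bear on these counts. When the genome was laid out in 449 tiles as long as the locus, the median tile held 9 thresholded summits (quartiles 5 and 14), and 63 tiles, or 14.0%, held at least the 18 of the locus. For the pooled list the median tile held 68 (quartiles 42 and 90), and 13 tiles, or 2.90%, held at least the 134 of the locus. On arm 3L alone, 15 of 94 tiles held at least 18 thresholded summits. A tile that lies mostly in the locus, 3L:18113402-18410342, held 21 thresholded and 143 pooled summits. It is counted in the 63, the 13 and the 15. The tiles also take in stretches of the arms with almost no summits, which lower the medians, quartiles and percentages. The locus has few genes for its length, 8 protein-coding genes against a median of 31 in the tiles. Of its 18 thresholded summits 15 were intergenic, or 83.3%, against 16.3% of the thresholded summits elsewhere.

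**Figure D3:**
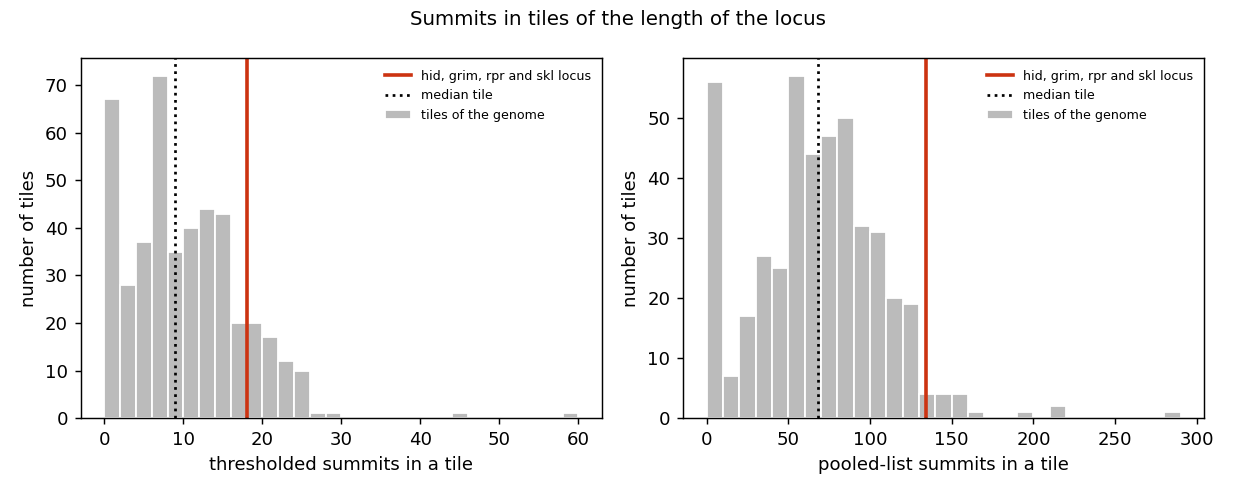
Number of tiles of the genome (linear axis), each as long as the locus, by the number of thresholded summits (left) and of pooled-list summits (right) they hold. The red line marks the locus, at 18 and 134 summits, and the dotted line the median tile, at 9 and 68. On the left 63 tiles reach the locus and on the right 13, and both counts include a tile that lies mostly in the locus.

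hid (FBgn0003997; 3L:18167745-18185641) encodes the antagonist of Diap1 that is also a target of growth factor signalling. It had 2 thresholded summits. The nearer was 347 bp upstream of its TSS, in a peak at 3L:18185800-18186175 with a signal of 344.6, rank 1325, and it ranked 1815, 1450 and 1376 in replicates 1, 2 and 3 (1547 ± 235, SD, n = 3). It was the most even of the 7 peaks assigned to rpr, hid and grim and the only 1 of them that all 3 replicates had among their strongest 4336. The farther was 7416 bp upstream, at 3L:18192952-18193153, with a signal of 336.7 and rank 1380. It ranked 926 and 1070 in replicates 1 and 2 but 10477 in replicate 3.

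rpr (FBgn0011706; 3L:18397535-18398435), the gene named reaper for the death it induces, had 3 thresholded summits. At its promoter the summit was 8 bp inside the gene, in a peak at 3L:18398239-18398614 with a signal of 158.1. That peak had rank 4133 of 4336, close to the threshold, and it ranked 3898, 4004 and 22015 in replicates 1, 2 and 3. Another lay 27485 bp downstream, in the stretch between grim and rpr (3L:18370762-18371137, signal 213.0, rank 2691), at ranks 3567, 5321 and 1575. No peak of rpr was among the strongest 4336 of all 3 replicates, and the replicates differed on which of its peaks was the strongest.

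grim (FBgn0015946; 3L:18302719-18304417) had 2 thresholded summits by the nearest-TSS rule, both far upstream between grim and rpr. One was 27219 bp away (3L:18331448-18331823, signal 212.2, rank 2706) and ranked 3648, 2660 and 5232 in replicates 1, 2 and 3. The other was 44337 bp away (3L:18348566-18348941, signal 301.7, rank 1636) and ranked 1332 and 1076 in replicates 1 and 2, with no match in replicate 3. The thresholded summit closest to the grim TSS lay on its other side, 23031 bp away, and was assigned to CG5103. skl (FBgn0036786; 3L:18438561-18439942), or sickle, had no thresholded summit. Its best peaks ranked 10045, 16565 and 24881 in replicates 1, 2 and 3. Of its 2 pooled summits the better had rank 19306, and the closest thresholded summit lay 21215 bp from its TSS and was assigned to CG32196.

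The other 11 thresholded summits of the locus were assigned to genes that lie among the death-inducing genes, with 7 going to CheA75a, 3 to CG7320 and 1 to CG5103. All 11 stood between hid and grim. The strongest peak of the locus was among the 7 of CheA75a, at 3L:18236480-18236674, with a signal of 623.5 and rank 486, and it ranked 351, 404 and 2764 in replicates 1, 2 and 3. Its summit lay 50941 bp upstream of the hid TSS. The next, assigned to CG5103, was at 3L:18281299-18281573 with a signal of 510.6 and rank 700, and it ranked 880, 714 and 714. It lay 23031 bp from the grim TSS, beyond the 3′ end of the gene. Which gene any of these summits acts on cannot be told from the position, and the nearest-TSS rule is only a way of counting.

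In all, 16 of the 18 thresholded summits of the locus had a match within 200 bp in all 3 replicate lists, or 88.9%, against 89.9% elsewhere. Fewer were strong in every replicate, with 6 of 18, or 33.3%, among the strongest 4336 of all 3, against 49.4% elsewhere. The median rank was 2367.5 in the locus and 2168.5 elsewhere. The weaker summits of the pooled list repeated about as often as elsewhere, with 25 of 116 matched in all 3 lists, or 21.6%, against 21.2%. No test was made of these differences.

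The windows of 100 bases to each side of the summit are shown for the peaks near hid, grim and rpr, in dm6, 5′ to 3′ on the minus strand, which is the strand of these genes, and for the strongest peak of the locus on the plus strand. Each was read from the RefSeq genome of that assembly, and E-boxes (CANNTG, a pattern that reads the same on both strands) are in capitals. They show how the E-boxes and the A/T-rich stretches fall in the sites the counts rest on. For the rpr promoter the transcribed bases were left out, so 92 bases remain.
hid upstream, 3L:18185888-18186088: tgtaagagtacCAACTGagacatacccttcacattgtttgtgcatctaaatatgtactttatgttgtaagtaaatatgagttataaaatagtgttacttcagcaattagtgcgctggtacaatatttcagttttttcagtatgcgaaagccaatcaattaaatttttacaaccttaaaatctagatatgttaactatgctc
hid farther upstream, 3L:18192957-18193157: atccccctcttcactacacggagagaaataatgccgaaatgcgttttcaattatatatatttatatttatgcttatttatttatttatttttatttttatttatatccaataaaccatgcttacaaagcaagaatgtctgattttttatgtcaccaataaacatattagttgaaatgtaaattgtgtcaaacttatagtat
grim farther upstream, 3L:18348654-18348854: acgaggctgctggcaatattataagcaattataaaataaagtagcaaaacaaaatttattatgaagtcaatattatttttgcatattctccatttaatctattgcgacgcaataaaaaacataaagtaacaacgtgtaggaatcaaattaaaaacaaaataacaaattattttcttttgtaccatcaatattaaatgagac
rpr promoter, 3L:18398436-18398527: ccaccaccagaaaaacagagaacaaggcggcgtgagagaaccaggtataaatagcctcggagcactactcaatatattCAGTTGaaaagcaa
between hid and grim, 3L:18236482-18236682: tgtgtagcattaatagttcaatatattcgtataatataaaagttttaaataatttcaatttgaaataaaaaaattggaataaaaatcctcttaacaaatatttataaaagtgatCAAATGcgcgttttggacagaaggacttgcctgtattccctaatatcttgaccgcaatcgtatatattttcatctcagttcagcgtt

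The nearer site of hid holds 1 E-box, CAACTG, far from its centre, while the farther site of hid and the farther site of grim hold none. The nearer site of grim, not printed, holds CAGATG. The rpr promoter holds CAGTTG just upstream of the TSS. The strongest site of the locus holds CAAATG. The farther site of hid has an unbroken run of 34 A or T bases, and the 100 bp at its summit were 16% G or C. Over the 18 thresholded summits of the locus this GC content averaged 29.3%, against 32.4% at the thresholded summits elsewhere. The locus as a whole is 38.2% GC and arm 3L is 41.6%. An E-box was found in 11 of the 18 windows of 201 bases, or 61.1%, against 59.8% elsewhere, so E-boxes were about as common here as at other sites. Windows 500 bp away from the thresholded summits of genes outside the set of 10 held an E-box in 65.3%. For those genes the pattern was thus no rarer 500 bp away than at the summits. For the cell death genes it was in 66.7% of windows at the summits and in 46.7% of those 500 bp away. Windows 500 bp away are not given for the locus.

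Diap1 (FBgn0260635; minus strand of 3L:16038410-16051034), the inhibitor that holds the caspases in check, had 6 thresholded summits. As many or more were assigned to 63 protein-coding genes, or 0.452% of all, the most being 16, and the median of the genes with any was 1. All 6 lay inside the gene, over 7515 bp, among the 5 TSSs of its 6 transcripts. Among the strongest 4336 peaks Diap1 had 4 summits in replicate 1, 5 in replicate 2 and 7 in replicate 3, or 5.33 ± 1.53 (SD, n = 3). The strongest peak was in an intron, 673 bp inside the transcripts Diap1-RA and Diap1-RE, at 3L:16046024-16046318. It had a signal of 728.5 and rank 354, the highest of all 10 cell death genes, and it ranked 369, 337 and 495 in replicates 1, 2 and 3 (400 ± 83.5, SD, n = 3). These ranks were high in every replicate and close together.

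A further intronic peak, 562 bp upstream of the TSS of Diap1-RC (3L:16043120-16043223, signal 349.4, rank 1306), ranked 1605, 1391 and 1713 in replicates 1, 2 and 3. Another, 1392 bp inside Diap1-RA (3L:16045266-16045641, signal 235.9, rank 2315), ranked 1651, 2812 and 1697. The promoter peak of Diap1-RA and Diap1-RE, 122 bp inside them (3L:16046536-16046911, signal 256.4, rank 2069), ranked 2426, 2335 and 2816. These 4 peaks were among the strongest 4336 of all 3 replicates. The remaining pair was less even. The promoter peak of Diap1-RB, 24 bp inside it (3L:16050459-16050834, signal 173.9, rank 3640), ranked 5680 in replicate 1 and 3343 in replicate 3 and had no match in replicate 2. An intronic peak 1492 bp upstream of Diap1-RA (3L:16048150-16048525, signal 161.7, rank 4025) ranked 9074, 4625 and 2237. Of the 15 thresholded summits of the cell death genes, 5 were among the strongest of all 3 replicates, these 4 and the nearer summit of hid.

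**Figure D4:**
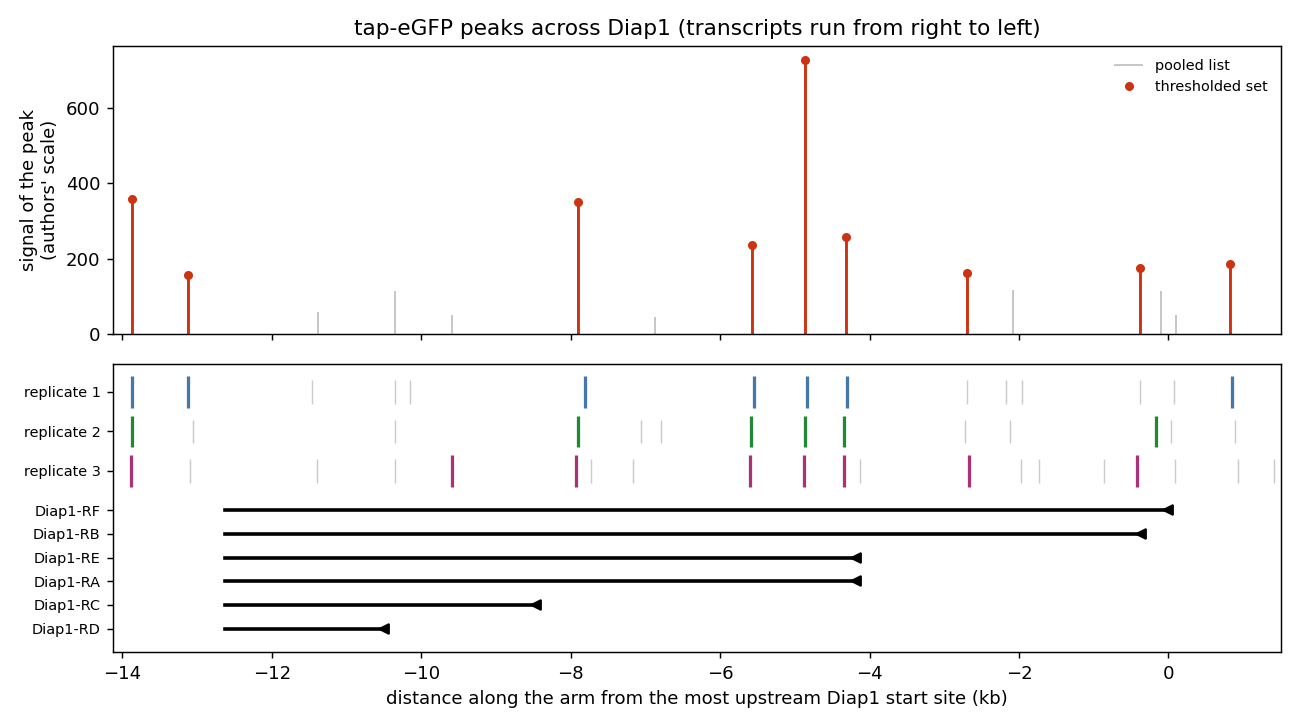
Peaks across Diap1, drawn by distance from its most upstream TSS in kb, with transcripts running from right to left and arrowheads at the TSSs. The upper panel gives the signal of the thresholded peaks (red) and of further pooled-list peaks (grey) on the authors' linear scale; the lower panel gives the summits of each replicate list, coloured where among the strongest 4336. The 6 thresholded summits of Diap1 lie inside the gene, the highest at a signal of 728.5; the remaining red peaks at the left and right ends were assigned to neighbouring genes.

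The window of the strongest Diap1 peak is shown in dm6, 5′ to 3′ on the minus strand, from the same RefSeq genome. This peak was the strongest of the 10 cell death genes in every replicate. The capitals mark E-boxes. It holds 3 of them, CACATG and CATGTG, which overlap in 1 run of capitals, and CATTTG, and the 100 bp at its summit were 25% GC. All 3 E-boxes lie outside those 100 bp, towards the 5′ end of the printed window.
Diap1 intron, 3L:16046073-16046273: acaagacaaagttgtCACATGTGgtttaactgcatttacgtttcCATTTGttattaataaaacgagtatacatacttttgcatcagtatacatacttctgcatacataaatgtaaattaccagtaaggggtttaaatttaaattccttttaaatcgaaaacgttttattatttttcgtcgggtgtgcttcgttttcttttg

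Of the caspases and their activator, Dcp-1 had a thresholded summit and Dark, Dronc and Drice had none. Dark (FBgn0263864; 2R:17020027-17026703), the scaffold of the apoptosome, had no thresholded or pooled summit. Replicate 2 alone placed a peak at its promoter among its strongest, at rank 3875 with its summit 61 bp from the TSS. Replicate 3 had a peak 126 bp from the TSS at rank 10012, and replicate 1 had none. The closest thresholded summit was 6978 bp from the TSS and was assigned to RhoGEF2, although it lay within 1000 bp of the far end of Dark. Dronc (FBgn0026404; 3L:9968479-9971002), the initiator caspase, had no thresholded summit. The pooled list held a peak 29 bp upstream of its TSS at rank 5831, not far below the threshold, and that peak ranked 9988, 3137 and 25487 in replicates 1, 2 and 3. The spread between replicates was thus wide, with replicate 2 alone ranking it above 4336.

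Dcp-1 (FBgn0010501; 2R:23551313-23553547), an effector caspase, had 1 thresholded summit, 14 bp inside its TSS, in a peak at 2R:23551139-23551514 with a signal of 208.0 and rank 2791. It ranked 3135, 2189 and 6220 in replicates 1, 2 and 3 (3848 ± 2108, SD, n = 3). A TSS of the overlapping gene pita, which encodes a zinc-finger protein of chromatin boundaries, lay within 500 bp of the same summit on the other strand, so the peak cannot be given to one gene rather than the other. Drice (FBgn0019972; 3R:29799658-29801584), the main effector caspase, had no summit in any list, and the closest thresholded summit lay 17020 bp from its TSS and was assigned to kay. Drice, Dronc, Dark, Dcp-1 and p53 each have less than 10 kb of genome nearest to their TSSs (1.75, 1.87, 3.83, 1.66 and 4.95 kb), against 13.4 kb for Diap1, 19.5 kb for hid, 31.3 kb for skl, 48.6 kb for grim and 67.8 kb for rpr.

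The 15 thresholded summits of the cell death genes were set beside the 4321 assigned to other genes. By position 6 were within 500 bp of a TSS of an annotated gene, 4 in introns and 5 intergenic, and all 5 intergenic ones were in the locus of the death-inducing genes. Intergenic summits made up 33.3%, against 16.5% for other genes, and promoter-proximal ones 40.0%, against 41.2%. A match in all 3 replicate lists was found for 12 of 15, or 80.0%, against 89.9%, and 5 of 15, or 33.3%, were among the strongest of all 3 replicates, against 49.4%. The median rank was 2691, against 2167. In replicate 3, 13.3% had no match, against 8.24%. In replicate 2 it was 6.67%, against 0.926%, and in replicate 1 none, against 1.02%. The median rank of the matches was 2567, 2498 and 2237 in replicates 1, 2 and 3, against 2185, 2207 and 2214. These differences rest on a few summits and were not tested.

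GC content at the summits averaged 33.5% (SD 12.1 over the 15 summits), against 32.4% (SD 9.63) at those of other genes. In the flanks 500 bp to each side it averaged 40.4%, against 42.6%, and it was lower at the summit than in the flanks at 9 of 15 summits, or 60.0%, against 79.7%. For the strongest 4336 peaks of each replicate, the summits of the cell death genes averaged 31.4%, 35.2% and 38.3% GC in replicates 1, 2 and 3, or 35.0% ± 3.46 (SD, n = 3). Their flanks averaged 40.1% ± 1.71 (SD, n = 3). Replicates 1 and 2 thus had less GC at the summits than in the flanks, at 40.8% and 41.4%, and replicate 3 did not, at 38.2%. These averages rest on 12, 14 and 12 summits in replicates 1, 2 and 3. The GC content of the other peaks of each replicate is not given here. Whether replicate 3 differs in this for the cell death genes alone or throughout its list thus cannot be told from the values given. The promoter-proximal summits averaged 41.7%, against 33.2% for other genes, and the remaining ones 28.0%, against 31.9%.

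**Figure D5:**
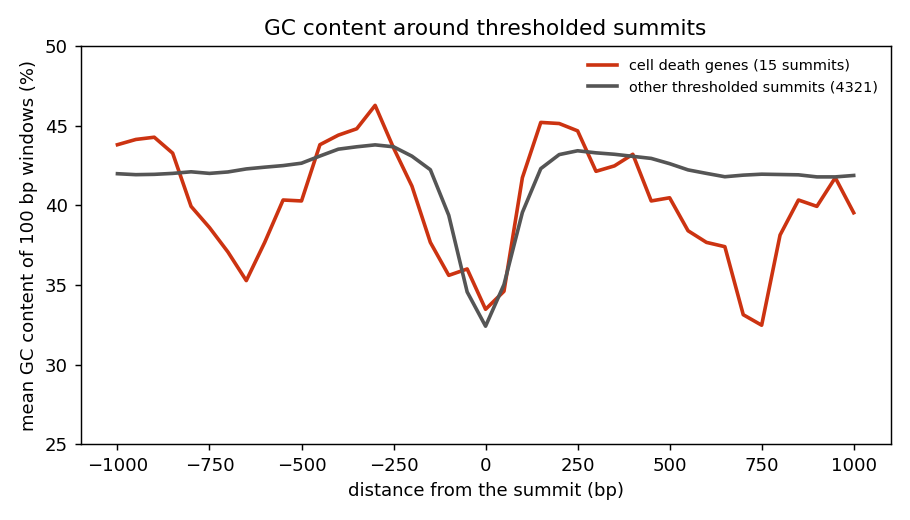
Mean GC content (%, axis from 25 to 50) of windows of 100 bp by distance from the summit (bp), for the 15 thresholded summits of the cell death genes and the 4321 of other genes. At the summit the lines stand at 33.5% and 32.4%; that of other genes is lowest there, while that of the 15 summits moves up and down along its length and is lower still 750 bp to one side, at 32.5%.

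E-boxes were found in the windows of 201 bases at 10 of the 15 summits, or 66.7%, against 59.8% for other genes, and in 46.7% of the windows 500 bp away, against 65.3%. Of single E-boxes, CATATG was in 2 of 15 windows, or 13.3%, against 8.33%, CAGATG also in 2, against 7.29%, and CAGCTG in none, against 7.27%. The DREF element TATCGATA was in 1 window, the promoter of p53, or 6.67%, against 1.94% of windows of other genes and 4.16% of their promoter-proximal windows. GAGAGA, a core of the sites of GAGA factor, was in 3 windows, or 20.0%, against 10.9%. All motifs were searched on both strands, and a match describes the sequence and is not evidence that a factor binds it.

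Beyond the 10 genes, 46 further cell death genes in 9 lists were counted by function. A thresholded summit was assigned to 14 of the 46, or 30.4%, against 19.0% of all protein-coding genes. The strongest 4336 peaks gave 16, 16 and 14 of them in replicates 1, 2 and 3, against 19.2%, 19.5% and 19.1% of all protein-coding genes. The lists are short, so the counts of each are descriptions to be read against these shares. The genes of the lists were not split by the genome nearest to their TSSs. Of all protein-coding genes, 36.6% of those with at least 10 kb of it had a thresholded summit, against 13.2% of those with less. The 14 genes had 22 thresholded summits, and the strongest of each was promoter-proximal in 7 and intronic in 7. Of the genes that remove dying cells 4 of 6 had a thresholded summit, and 4 of 6 had a summit among the strongest of each replicate. The 4 with a thresholded summit were crq, a scavenger receptor of the CD36 family (signal 444.3, rank 894), mbc, an activator of Rac (412.4, rank 1009), NimC4, a receptor for dying cells (255.8, rank 2072), and ced-6, an adaptor of the engulfment receptor (247.8, rank 2171). The peak of crq ranked 1264, 1161 and 541 in replicates 1, 2 and 3, and that of mbc 1245, 849 and 1492. drpr, the engulfment receptor itself, had none.

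Of the TNF and JNK genes 4 of 8 had a summit. puc, the phosphatase that shuts off JNK, had 3, the strongest 7589 bp inside its nearest TSS and close to the TSS of a noncoding gene, with a signal of 568.7, rank 575 and replicate ranks of 658, 557 and 813. The ligand egr had a promoter peak at rank 3190, Traf6 at rank 3479, and the JNK kinase hep an intronic peak at rank 3999. The Traf6 peak ranked 4396 and 1914 in replicates 1 and 3 and had no match in replicate 2. Of the autophagy genes 3 of 5 had a thresholded summit, and 4, 3 and 4 had one among the strongest of replicates 1, 2 and 3. Those with a thresholded summit were Atg8a (rank 2020), Atg5 (rank 2279) and Atg1 (rank 2735). The Atg1 peak ranked 3832 and 1649 in replicates 1 and 2 and had no match in replicate 3. Of the genes of Diap1 turnover and the apoptosome 2 of 5 had a summit, and both peaks were strong. Cyt-c-p, the somatic cytochrome c, had an intronic peak with a signal of 803.0 and rank 288, at 321, 209 and 596 in replicates 1, 2 and 3. eff, the ubiquitin-conjugating enzyme that acts on Diap1, had 3 summits, the strongest with a signal of 702.3 and rank 383, at 518, 421 and 271. These 2 peaks stood with that of the Diap1 intron as the strongest of all the cell death genes examined.

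EndoG, a mitochondrial nuclease, was the 1 of 7 nuclease and mitochondrial genes with a summit (rank 2022, replicate ranks 2949, 1701 and 2178). None was assigned to any of the 15 genes of the remaining 4 lists, the inhibitors of apoptosis beyond Diap1, the other caspases, the Bcl-2 family and the DNA damage genes around p53, against 19.0% of all protein-coding genes. Among the strongest 4336, a pair of the DNA damage genes, grp and Corp, had a summit in replicates 1 and 2 and neither had one in replicate 3. Of the 7 caspases examined, 1 was given a thresholded summit, Dcp-1, whose peak pita shares, and that is close to the share of all genes.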

How the data were processed

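The study measured DNA bound by tap-eGFP in 3 biological replicates of whole embryos, with a library size range of 200 to 800 bp, per the labels. The notes deposited with the samples state that the authors called peaks in each replicate and in the pool against a control and derived the thresholded set from these lists by irreproducible discovery rate (IDR). Not given in the sources used here are the aligner, the peak caller, their versions and the IDR cut-off. Each deposited peak has a signal value and, by the file format, the −log10 of a q-value, both from the authors' peak caller. The lists give no read counts, so depth is unknown, and the common length of 30000 peaks does not reflect it. Signal scales differ between lists, so peaks were ranked by signal within a list. All 4336 thresholded peaks were found in the pooled list. Each thresholded peak of the cell death genes had the same rank by signal in both lists. The other pooled peaks of these genes all had rank numbers above 4336. The control libraries were not analysed here. A summit counted for rpr is not reported here.

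Coordinates are dm6, written from 1. Summits were assigned to the nearest TSS of a protein-coding gene of Ensembl release 115; replicate peaks matched a summit within 200 bp. Promoter-proximal summits lay within 500 bp of a TSS of an annotated gene of any type. GC was taken over 100 bp. Sequences came from the RefSeq genome, and UTRs were left out of those printed. Python 3.11.15, numpy 2.4.6, pandas 2.3.3 and matplotlib 3.10.9 were used, and the scripts were tested on simulated data. No statistical test was made: there is 1 group, and the members and lists were chosen with earlier results of these data known. Named were all members, the listed cell death genes with a thresholded summit, and genes within 500 bp of a member's thresholded summit or inside or bounding the locus; 44 of the 46 listed genes were matched by symbol and 2 by synonym. RhoGEF2 and kay, the genes given the thresholded summits closest to Dark and Drice, and drpr, grp and Corp were named after their values were seen. Alternatives were other rules of assignment, the stronger 2168 peaks, ranking by q-value, other windows and match distances, and leaving out each replicate.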

Additional observations from a re-analysis of the deposited data

How the results depend on the processing

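With the 2168 strongest thresholded peaks alone, 3 of the 10 cell death genes had a summit (11.4% of all protein-coding genes), against 6 as reported, and the locus held 9 in place of 18. Keeping only thresholded peaks among the strongest of both remaining replicates left 2 to 5 of the cell death genes with a summit, 5 to 10 of their 15 summits, 6 to 13 of the 18 summits of the locus and 10 to 11 of the 14 other cell death genes. That rule asks more of a peak than the threshold, and kept 55.0%, 56.5% and 70.6% of all thresholded peaks without replicates 1, 2 and 3, and 33.3%, 40.0% and 66.7% of those of the cell death genes. The reported 6 genes became 5, without grim, with summits within 5000 bp or 500 bp of the TSS or with the nearest TSS of any annotated gene. By gene body with 1000 bp to each side there were 6, with Dark in and grim out, and by q-value the same 6. Matches in 3 lists were 12 of 15 at 100 bp and 15 at 500 bp. GC at the summits was 34.3% over 50 bp and 35.3% over 200 bp. By gene body, 18 of the 46 other genes had a summit. Depth limits every count by an unknown amount. No paired analysis was possible because there is 1 group of samples.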
